A study of Mus musculus with 6 samples.

Results

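The oxidative phosphorylation subunit genes were taken as the genes whose symbol begins with Nduf, Uqcr, Atp5, Cox4, Cox5, Cox6, Cox7 or Cox8, together with Sdha, Sdhb, Sdhc and Sdhd. The array named 93 such genes among 20284 genes, and each was read from its brightest probe. They comprised 36 complex I genes, 8 complex I assembly factors (the Ndufaf genes), 4 complex II genes, 8 complex III genes, 20 complex IV genes and 17 complex V genes. Ndufa4 and Ndufa4l2 were counted with complex IV, since the NDUFA4 protein is now placed there. The signal was well above background on all 6 arrays for 89 of the 93 genes, on some arrays for Ndufa4l2, and on none for Cox7b2, Cox8b and Cox8c. No member was saturated on any array. Comparisons that included fetal liver arrays used 90 members, and those within bone marrow used 89.

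Oxidative phosphorylation is the pathway by which mitochondria turn the energy of nutrients into ATP. Complexes I and II pass electrons from NADH and succinate to ubiquinone, complex III passes them on to cytochrome c, complex IV hands them to oxygen, and complex V uses the proton gradient that complexes I, III and IV build to make ATP. Adult hematopoietic stem cells are known for a low use of this pathway and a high use of glycolysis, whereas fetal liver stem cells divide and rely more on mitochondrial respiration. The members studied here are encoded in the nucleus, and the subunits encoded by mitochondrial DNA are not among them.

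Total RNA of sorted KSL cells (positive for c-Kit and Sca1, negative for Lineage markers) of C57BL6 mice was measured on Agilent 1-colour arrays, from 10 ng of RNA per sample. The knockout removes Tif1b (Trim28), which encodes a corepressor of transcription. Fetal liver gave 1 wild-type (WT) sample, with Tie2-Cre and Tif1b w/w alleles, and 1 knockout (KO) sample, with Tie2-Cre and Tif1b f/f alleles. Adult bone marrow gave 2 WT samples (CreERT, w/w) and 2 KO samples (CreERT, f/f), and the genotype labels of replicate 2 read Tif2b in place of Tif1b. Tie2-Cre is active in endothelial and blood-forming cells, so both fetal liver samples share a driver that the bone marrow samples lack, and CreERT is a Cre that acts after tamoxifen. The labels give no ages and do not say whether replicates are different animals. P-values here therefore speak to the spread among these arrays alone, and that spread may be technical. The sample labels name no slide. The WT and KO arrays of the same tissue and replicate number were assumed to be 1 slide, which makes 3 replicate pairs. Wherever slides are named below, these assumed pairs are meant. Tissue cannot be told apart from pair and Cre driver.

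Bone marrow WT replicate 1 was read from 2 sources, because its scanner file and its column in the deposited value table do not hold the same measurement. The value table is the authors' scaled signal. Only 1.40% of the probes agreed within 1% between the sources for this array, against 100% for each of the other 5. In the scanner file the c-Kit gene Kit stood at 1.30, against 4.16 in the value table and 4.17 to 4.50 on the other arrays (log2 signal minus the array's 75th percentile, the scale of every level given here). Trim28 stood at 2.45 in that scanner file and at 5.18 in the value table, beside 5.97 and 5.55 in the other WT samples and 1.68, 1.28 and 0.75 in the KO samples. All 9 B-lymphoid markers were above background in that scanner file, and only 3 of 6 megakaryocyte markers were, against 4 and 6 in the value table. One line of this sample's label also names an Hp1a knockdown in c-Kit+ Lineage- cells, and the label of bone marrow KO replicate 1 names an Hp1g knockdown in the same way, while their other label lines give KSL cells of the stated genotype. Results are therefore given from both sources. The sorting marker Ly6a (Sca1) was at 0.31 and 0.77 in fetal liver and between 3.36 and 6.04 in bone marrow. Of 5 hepatocyte markers 4 were above background in fetal liver WT, 2 in fetal liver KO and 1 on each bone marrow array, and Apoa1 on none. The 75th percentile signal lay between 211 and 325 in fetal liver and bone marrow replicate 1 and at 737 and 743 in bone marrow replicate 2.

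In fetal liver the members were lower in the KO sample than in the WT sample by a modest amount. The median difference (KO minus WT) was -0.29 on the log2 scale, a level 18.0% lower, with 85 of 90 members lower. Among all 12698 genes 57.8% were lower in the KO sample and the median was -0.07. The interquartile range was 0.19 log2 units over the members, against 0.47 for all genes. With 1 array per genotype no test is possible, and fewer cells of a type and less RNA per cell cannot be told apart in such bulk samples. Marker levels also differed between these arrays. A summed marker level here is the log2 of the sum of the unlogged levels of a list. The brightest genes weigh most in it, so it does not show that all markers of a list moved together. From WT to KO the summed hepatocyte markers went from 3.11 to 0.55, the mast cell markers from 3.68 to 2.82 and the erythroid markers from 9.43 to 10.1, and 7 and 2 of the 9 B-lymphoid markers were above background. Their part in the result was not tested.

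By complex, the median fetal liver difference was -0.29 for complex I, -0.47 for its assembly factors, -0.30 for complex II, -0.33 for complex III, -0.25 for complex IV and -0.31 for complex V. All 17 complex V genes, all 8 complex III genes and all 4 complex II genes were lower in the KO sample. In complex I the difference was lowest for Ndufa5, an accessory subunit of the peripheral arm, at -0.53 (level 7.57 in WT and 7.04 in KO). In complex III the lowest was Uqcr11, a small accessory subunit, at -0.53, and the highest was Uqcrb, which lies at the ubiquinone-binding part of the complex, at -0.09. In complex V the range ran from -0.46 for Atp5l, subunit g of the membrane part, to -0.16 for Atp5o, the OSCP subunit of the stalk. The c-ring genes Atp5g1, Atp5g2 and Atp5g3, which encode the same mature protein with different import sequences, differed by -0.34, -0.31 and -0.32. In complex II the flavoprotein gene Sdha differed by -0.21, the iron-sulfur subunit gene Sdhb by -0.27, and the membrane anchors Sdhc and Sdhd by -0.40 and -0.32.

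Only 5 of the 90 members were higher in the fetal liver KO sample, namely Cox4i2, Ndufa4l2, Ndufv3, Ndufa1 and Ndufaf5. Of these, 2 were at least 2-fold apart, a size that 9.73% of the 12698 genes reached in either direction. Cox4i2, the isoform of subunit 4 associated with low oxygen and with lung, read 0.60 in WT and 1.63 in KO, a difference of 1.03. Ndufa4l2, a hypoxia-inducible relative of Ndufa4, was not well above background in WT and read -1.65 in KO, at least 2.99-fold higher. Ndufv3, an accessory subunit of the NADH-binding part of complex I, read 8.01 in WT and 8.31 in KO, and both of its probes were higher in KO (0.30 and 0.51). Ndufa1, a small membrane subunit of complex I encoded on the X chromosome, differed by 0.18 and the assembly factor Ndufaf5 by 0.12.

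**Figure D1:**
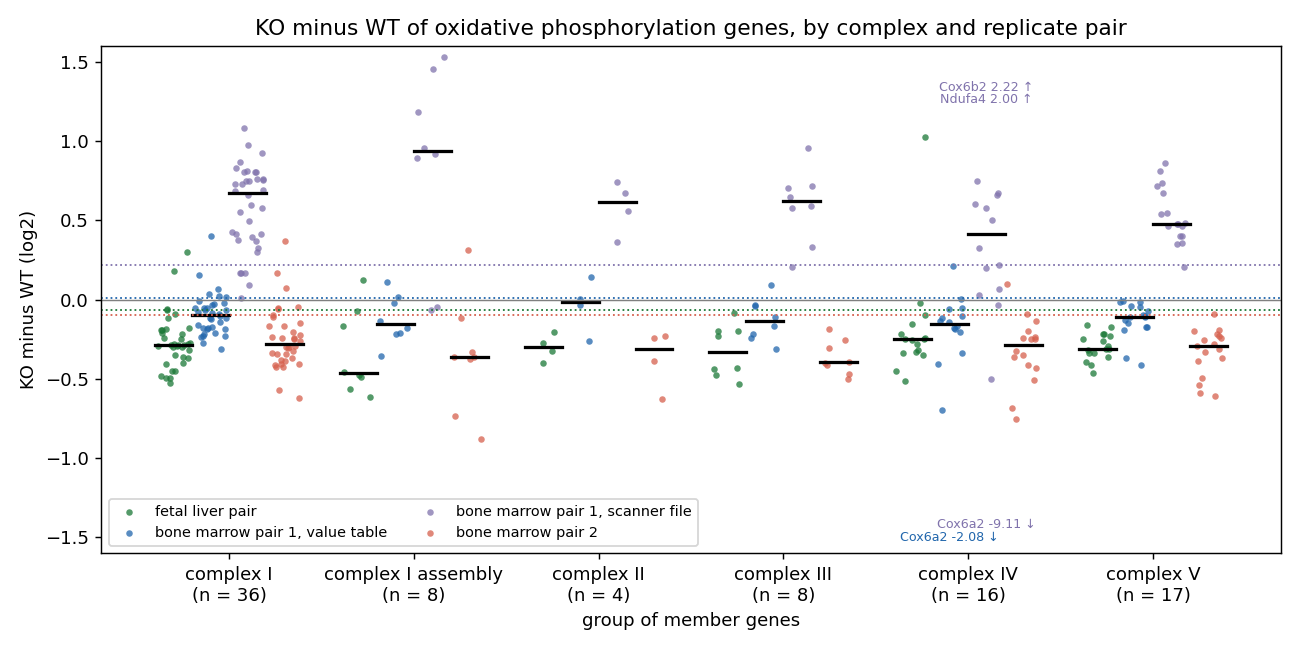
KO minus WT (log2, y axis) for the 89 members tested in bone marrow, grouped by complex (x axis) and coloured by replicate pair, with bone marrow pair 1 shown from the value table and from the scanner file. Black bars are medians, dotted lines are the medians of all genes tested in each pair, and labelled arrows give members beyond the axis; most points lie below 0 in every pair except bone marrow pair 1 read from the scanner file.

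In bone marrow the outcome for the members turned on the source of WT replicate 1. In pair 2, where both sources hold the same values, the median difference was -0.31 (19.2% lower) with 84 of 89 members lower in KO, against -0.10 for all genes. In pair 1 the value table gave a median of -0.11 with 76 of 89 lower, against 0.01 for all genes, and the scanner file gave 0.58 with 84 of 89 higher, against 0.22 for all genes. Of all 13010 genes tested, 60.2% were higher in KO in pair 1 by the scanner file. Kit and Trim28 were also lower in that scanner file than in the value table, as given above, and the part of this in the difference was not tested. With quantile scaling the medians were -0.18 in fetal liver (81 of 90 lower), -0.14 in bone marrow pair 2 (71 of 90 lower) and -0.01 in pair 1 by the value table (45 of 90 lower), so the last had no direction under that scaling.

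No member passed the test of KO against WT over the 4 bone marrow arrays. With limma and Benjamini-Hochberg adjustment over all genes, 0 of 89 members passed at an adjusted p under 0.05 in the scanner files, where 0% of 13010 genes passed, and 0 of 89 in the value table, where 0.876% of 12783 genes passed. At an unadjusted p under 0.05 no member passed in either source, against 548 genes in the scanner files and 1411 in the value table. When slides were fitted as blocks, 981 genes and 0 members passed in the value table, and 5 of 89 members had an unadjusted p under 0.05. The number of all genes at that unadjusted p is not given here for the block fit, so the 5 are no result about the members. The member with the lowest adjusted p in the value table was Cox7a1, at 0.636 without the block and 0.068 with it (limma, Benjamini-Hochberg).

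The fitted medians in bone marrow were -0.21 over the 89 members in the value table, with 84 lower, and 0.12 in the scanner files, with 71 higher, against -0.05 and 0.06 over all genes. Both medians depended on which array was present. In the scanner files the median was 0.02 without WT replicate 1, -0.22 without KO replicate 1, 0.27 without WT replicate 2 and 0.46 without KO replicate 2. In the value table it was 0.02 without WT replicate 1, 0.13 without KO replicate 2, -0.53 without KO replicate 1 and -0.46 without WT replicate 2. By complex the value-table median was -0.18 for complex I, -0.27 for the assembly factors, -0.17 for complex II, -0.28 for complex III, -0.23 for complex IV and -0.18 for complex V. None of the following extremes passed the test. The lowest and highest differences were -0.43 (Ndufa10) and 0.39 (Ndufa1) in complex I, -0.44 (Sdhd) and -0.04 (Sdha) in complex II, and -0.39 (Uqcr11) and -0.08 (Uqcrb) in complex III. In complex IV they were -0.99 (Cox6a2) and 0.06 (Ndufa4), and in complex V -0.51 (Atp5mpl, a small membrane subunit) and -0.05 (Atp5e, the epsilon subunit of the central stalk).

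Marker levels differed between the genotypes in the same bone marrow samples. The 8 hematopoietic stem cell markers summed to 4.18 (value table) and 4.84 in WT and to 6.30 and 6.19 in KO. The summed level of the 10 neutrophil markers was 10.5 (value table) and 9.52 in the WT samples and 8.11 and 4.99 in the KO samples, and that of the 6 monocyte markers was 7.25 and 6.22 in WT and 4.71 and 3.97 in KO. The 6 megakaryocyte markers summed to 6.94 and 6.70 in WT and to 7.80 and 7.94 in KO, and the 3 mast cell markers to 3.26 and 3.89 in WT and to 6.60 and 5.95 in KO. The 7 named erythroid markers summed to 4.62 (value table) and 4.99 in WT and to 8.65 and 5.71 in KO. By its scanner file WT replicate 1 had sums of 5.26 (stem cell), 9.33 (monocyte), -0.86 (megakaryocyte) and -0.15 (mast cell). These 4 sums and the neutrophil sum lay on the same side of both KO samples as in the value table. The erythroid sum of that scanner file lay above both KO samples, so its direction in pair 1 turned on the source. The part of these marker levels in the members' differences was not tested.

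Over both tissues, 69 of 90 members were lower in KO than in WT in all 3 replicate pairs in the value table, where 26.3% of all 13496 genes were. In the scanner files only 2 of 90 members were, Cox4i1 and Cox7a2l, where 11.5% of genes were. These 2 encode the broadly used isoform of subunit 4 and a relative of the subunit 7A isoforms. By complex, the value table had 27 of 36 complex I genes, 4 of 8 assembly factors, 2 of 4 complex II genes, 7 of 8 complex III genes, 12 of 17 complex IV genes and 17 of 17 complex V genes lower in all 3 pairs. These counts were made with the scaling used for the levels given here. With quantile scaling 45 of 90 members were lower in bone marrow pair 1 by the value table. No more than 45 could then be lower in all 3 pairs, so the count of 69 does not hold under that scaling. The model of tissue plus genotype called 0 of 90 members in the value table, where 0.170% of 13496 genes passed, and 0 of 90 in the scanner files, where 0% of 13658 genes passed. No member had an unadjusted p under 0.05 in either fit, against 1400 and 466 genes. When slides were fitted as blocks, 14 of 90 members had an unadjusted p under 0.05 in the value table and 0 in the scanner files. After adjustment 0 of all genes passed in either source. The number of all genes at that unadjusted p is not given here for the block fit, so the 14 are no result about the members.

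Cox7a1 had the lowest adjusted p of the members in the genotype comparison, and Ndufa1 went against most members. Cox7a1, the subunit 7A isoform of heart and skeletal muscle, read 1.94 in WT and 1.43 in KO in fetal liver, 0.27 (value table; -0.46 in the scanner file) and -0.43 in bone marrow pair 1, and -0.41 and -1.16 in bone marrow pair 2. By the value table it was lower in KO in every pair, by 0.52, 0.70 and 0.75 log2 units, with a fitted difference of -0.66 ± 0.29 (SE, 6 arrays; limma adjusted p = 0.532). Ndufa1 read 6.68 in WT and 6.86 in KO in fetal liver, 6.91 (value table; 6.34 in the scanner file) and 7.32 in pair 1, and 6.25 and 6.62 in pair 2. It was the 1 member higher in KO in all 3 pairs in both sources, with a fitted difference of 0.32 ± 0.29 (SE, 6 arrays; value table; limma adjusted p = 0.793). Neither passed the test.

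Ndufa4l2 was above background on 3 arrays, fetal liver KO and both of bone marrow pair 2, and was tested because the single fetal liver KO array passed the filter. It read -3.67 in WT and -1.65 in KO in fetal liver and -4.56 in WT and -2.58 in KO in bone marrow pair 2, a difference of 1.98 in the latter. In bone marrow pair 1 it was above background in neither sample, at -5.51 (value table) or -4.57 (scanner file) in WT and -5.76 in KO. Its broadly expressed relative Ndufa4 read 7.43 in WT and 7.10 in KO in fetal liver and 5.91 and 5.82 in bone marrow pair 2. In bone marrow pair 1 Ndufa4 was higher in KO, at 7.09 against 6.87 (value table) or 5.09 (scanner file) in WT.

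The difference between the tissues in genotype effect was not resolved for any member. The interaction test called 0 of 90 members in the value table and 0 of 90 in the scanner files, and 0% of all genes in both (limma, Benjamini-Hochberg). At an unadjusted p under 0.05 there were 948 genes in the value table and 351 in the scanner files, and no member in either. With slides as a block 373 genes and no member passed in the value table. At an unadjusted p under 0.05 there was 1 member in that fit, and the number of all genes at that p is not given here.

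Between tissues the members were lower in bone marrow than in fetal liver. The median difference (bone marrow minus fetal liver) was -0.70 in the value table, a level 38.4% lower, with 87 of 90 members lower, and -0.89 in the scanner files, with 89 of 90 lower. All genes tested had medians of -0.26 and -0.30, so the members lay 0.44 and 0.60 log2 units further down. All 4 bone marrow arrays lay below both fetal liver arrays for 71 of 90 members in the value table, against 36.8% of all genes, and for 75 of 90 in the scanner files, against 33.7%. The size of this shift depended on how the arrays were scaled. With quantile scaling the value-table median was -0.21 with 72 of 90 members lower, against -0.04 for all genes, and with each array scaled to its median it was -0.46, against -0.01 for all genes. The 2 tissues also differed in marker levels. The 7 named erythroid markers summed to 9.43 and 10.1 in fetal liver and to 8.65, 4.99, 5.71 and (value table) 4.62 in bone marrow, and the neutrophil markers to 11.7 and 11.6 in fetal liver. By its scanner file the erythroid sum of bone marrow WT replicate 1 lay above both fetal liver sums. The part of these marker levels in the members' difference was not tested.

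**Figure D2:**
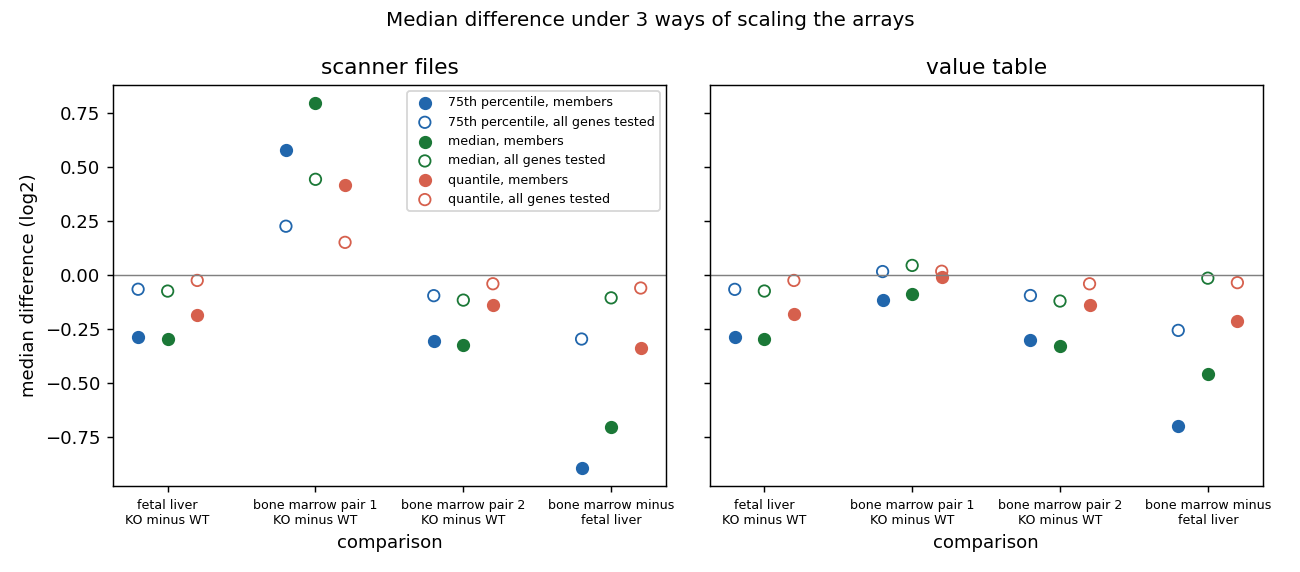
Median difference (log2, y axis) of the 90 members (filled points) and of all genes tested (open points) for the 3 replicate pairs and for bone marrow minus fetal liver (x axis), under 3 ways of scaling the arrays, from the scanner files (left) and the value table (right). The members lie below all genes in every comparison but bone marrow pair 1 from the scanner file, and the members' medians lie closest to 0 under quantile scaling.

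As a set, the members were lower on each bone marrow array when it was set against the fetal liver array of the same genotype. The median over the 90 members was -0.51 for WT replicate 1 by the value table (-1.22 by the scanner file), -0.35 for KO replicate 1, -1.03 for WT replicate 2 and -1.01 for KO replicate 2. Replicate 2 lay lower than replicate 1 in KO, and in WT by the value table, while the scanner file put WT replicate 1 lowest. Over all genes the medians were -0.22 (-0.39 by the scanner file), -0.15, -0.29 and -0.33 in the order given above. On KO replicate 1 the complex II median was -0.06 with 2 of 4 genes lower. The assembly factor median there was -0.09 with 4 of 8 lower, so both groups lay no lower than all genes on that array. By complex, the value-table median was -0.89 for complex IV, -0.80 for complex V, -0.74 for complex III, -0.71 for complex I, -0.52 for the assembly factors and -0.41 for complex II. Every tested member of complexes II, III, IV and V and every assembly factor was lower in bone marrow in this fit, in both sources under this scaling.

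**Figure D3:**
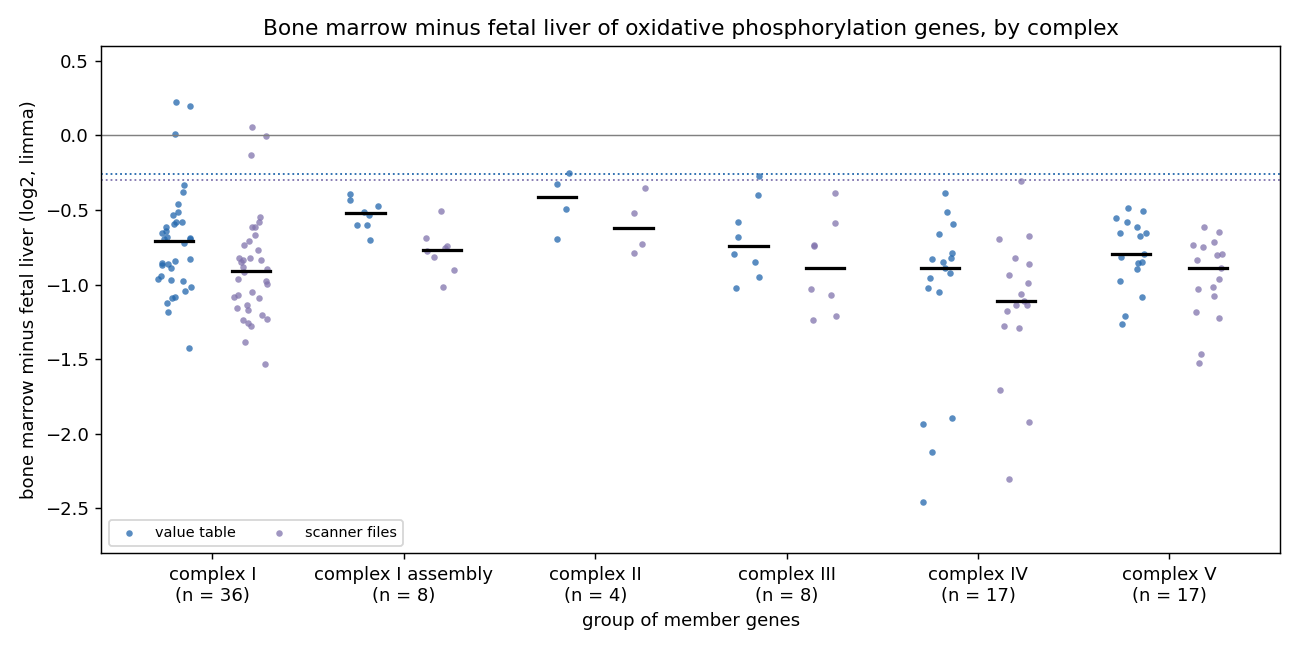
Bone marrow minus fetal liver (log2, limma fit over 6 arrays, y axis) for the 90 tested members by complex (x axis), from the value table and from the scanner files. Black bars are medians and dotted lines the medians of all genes tested, at -0.26 and -0.30; the 4 lowest value-table points belong to complex IV.

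The test called 11 of 90 members lower in bone marrow in the value table, where 14.0% of 13496 genes passed in that direction, and 1 of 90 in the scanner files, where 1.23% of 13658 genes did. Neither share of members was far from that of all genes, and no member was called higher. The 11 were 6 complex I genes (Ndufv3, Ndufb8, Ndufs6, Ndufa3, Ndufa11 and Ndufa9), 3 complex IV genes (Cox6a2, Cox7a1 and Cox4i2) and 2 complex V genes (Atp5g1 and Atp5d). The number called depended on the arrays, being 2 without bone marrow WT replicate 1, 4 without KO replicate 1, 2 without WT replicate 2 and 4 without KO replicate 2 (value table). With slides as a random block 833 of 13496 genes passed in either direction, among them 1 member, Cox7a1 (limma adjusted p = 0.0335). The other called members had limma adjusted p between 0.0620 (Ndufv3) and 0.120 (Cox6a2) with the block. With quantile scaling 4 members were called. The numbers of all genes passing with an array left out or with quantile scaling are not given here. Those counts are therefore no result about the members. The standard errors and p-values given below for single genes between tissues come from the fit without the block, which takes the 6 arrays as independent.

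**Figure D4:**
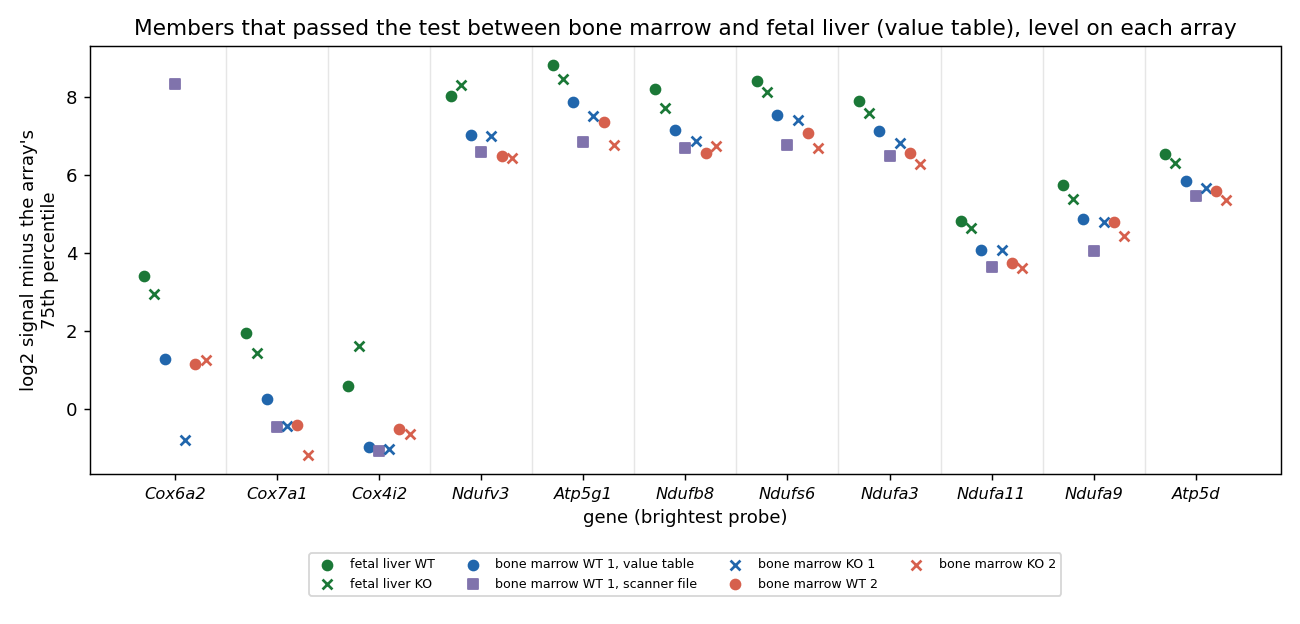
Level (log2 signal minus the array's 75th percentile, y axis) on each array of the 11 members that passed the test between tissues in the value table (x axis, ordered by difference). Both fetal liver points lie above all 4 bone marrow value-table points for each gene, and the scanner file of bone marrow WT replicate 1 departs from this for Cox6a2, at 8.32.

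Cox7a1 was called in both sources. Its levels in fetal liver (1.94 and 1.43) lay above every level in bone marrow (between -1.16 and 0.27). The difference was -2.12 ± 0.31 (SE, 6 arrays) in the value table, a 4.35-fold lower level with a limma adjusted p of 0.0120, and -2.30 ± 0.30 in the scanner files with a limma adjusted p of 0.0363. In the value table it kept its call in 10 of 12 alternatives, with differences between -2.28 and -1.88. In the scanner files it kept its call in 6 of 13 alternatives, and lost it without KO replicate 1, without WT replicate 2 and without KO replicate 2, with differences between -2.47 and -1.87 over the 13. The broadly used partner Cox7a2 read 7.20 and 6.86 in fetal liver and between 5.50 and 6.54 in bone marrow by the value table, a difference of -0.95 ± 0.34 that did not pass (limma adjusted p = 0.0911).

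Cox6a2, the muscle isoform of subunit 6A, read 3.41 in fetal liver WT and 2.96 in KO. In bone marrow it read 1.29 in WT replicate 1 by the value table and 8.32 by its scanner file, -0.78 in KO replicate 1, 1.16 in WT replicate 2 and 1.26 in KO replicate 2. The tissue difference was -2.45 ± 0.57 (SE, 6 arrays) in the value table, 5.48-fold lower with a limma adjusted p of 0.0353, and -0.70 ± 2.20 in the scanner files with a limma adjusted p of 0.856. KO replicate 1 stood apart from the other bone marrow samples, and without KO replicate 2 Cox6a2 was also called lower in bone marrow KO than in WT in the value table. The partner Cox6a1, expressed in most tissues, read 9.85 and 9.60 in fetal liver and 8.49 to 9.21 in bone marrow by the value table.

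Cox4i2 read 0.60 in WT and 1.63 in KO of fetal liver and lay between -1.01 and -0.50 on the 4 bone marrow arrays by the value table. The difference was -1.89 ± 0.33 (SE, 6 arrays), 3.71-fold lower, with a limma adjusted p of 0.0175 in the value table and 0.0712 in the scanner files. Cox4i1 read 8.66 and 8.42 in fetal liver and 7.35 to 8.20 in bone marrow, a difference of -0.79 ± 0.27 that did not pass (limma adjusted p = 0.0812). The testis isoform gene Cox6b2 read 3.09 and 3.07 in fetal liver and 2.42 to 2.67 in bone marrow by the value table, a difference of -0.51 ± 0.17 that did not pass (limma adjusted p = 0.0802), while the scanner file of WT replicate 1 gave 0.29. Its partner Cox6b1 differed by -0.89 ± 0.30 (value table; limma adjusted p = 0.0815). The broadly used Cox7b and Cox8a differed by -0.92 ± 0.38 and -1.05 ± 0.30 and did not pass (limma adjusted p = 0.122 and 0.0554), and their testis and muscle relatives Cox7b2, Cox8b and Cox8c were above background on no array. The highest difference in complex IV was that of Cox7a2l, at -0.39 ± 0.28.

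**Figure D5:**
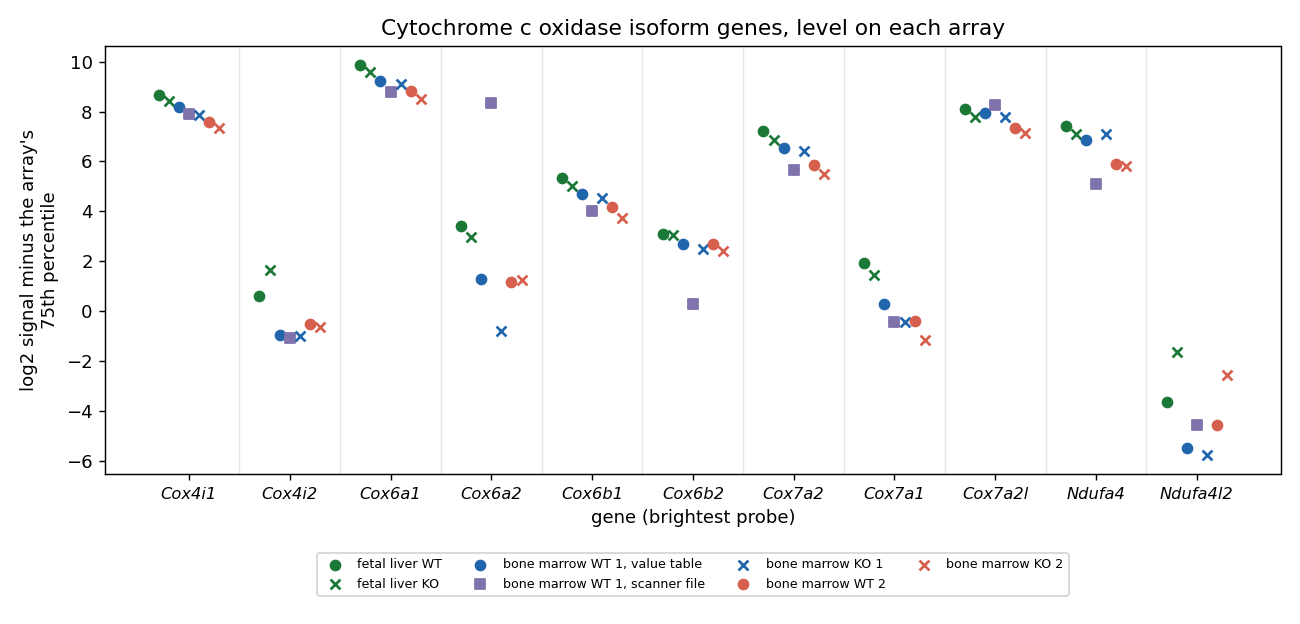
Level (log2 signal minus the array's 75th percentile, y axis) on each array of cytochrome c oxidase isoform genes and their partners (x axis); levels of different genes come from different probes and cannot be compared. Cox4i2, Cox6a2 and Cox7a1 lie higher in fetal liver than in bone marrow, as do their partners Cox4i1, Cox6a1 and Cox7a2. Cox6a2 departs from this in the scanner file of WT replicate 1. The tissues overlap for Cox7a2l and Ndufa4l2, and Ndufa4l2 is highest in fetal liver KO and bone marrow KO replicate 2.

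In complex I, Ndufv3 had the lowest tissue difference. It read 8.01 and 8.31 in fetal liver and 6.44 to 7.01 in bone marrow, a difference of -1.43 ± 0.27 (SE, 6 arrays; value table; limma adjusted p = 0.0216), and its other probe gave -0.77. The other 5 called complex I genes differed by between -1.13 (Ndufb8, an accessory subunit of the membrane arm; limma adjusted p = 0.0311) and -0.84 (Ndufa9, next to the ubiquinone site; limma adjusted p = 0.0345). Ndufs6, which helps to place the last iron-sulfur cluster, differed by -1.08, Ndufa3 by -1.04 and Ndufa11 by -0.86. Against this, the accessory subunit gene Ndufa10 differed by 0.20 ± 0.21 and Ndufa1 by 0.01 ± 0.30 in the value table, and in the scanner files they differed by -0.01 and -0.13, none of which passed the test.

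In complex V, Atp5g1 had the lowest difference. It read 8.80 and 8.47 in fetal liver and 7.87, 7.51, 7.35 and 6.76 in bone marrow WT 1 (value table), KO 1, WT 2 and KO 2, a difference of -1.26 ± 0.29 (SE, 6 arrays; limma adjusted p = 0.0349). The other c-ring genes differed by -0.68 ± 0.28 (Atp5g2) and -0.82 ± 0.26 (Atp5g3), and neither passed. Atp5d, the delta subunit of the central stalk, differed by -0.80 ± 0.19 (limma adjusted p = 0.0400). The highest difference was that of Atp5pb, subunit b of the peripheral stalk, at -0.49 ± 0.24. Atpif1, the inhibitor of ATP synthase and not a member by its symbol, read 9.32 and 8.98 in fetal liver and 7.76 to 8.99 in bone marrow by the value table and did not pass (-0.71 ± 0.40, limma adjusted p = 0.227).

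Complexes II and III had no called member. In complex II the tissue difference was -0.25 ± 0.21 for Sdha, -0.70 ± 0.35 for Sdhb, -0.33 ± 0.22 for Sdhc and -0.49 ± 0.23 for Sdhd (SE, 6 arrays; value table). In complex III it ran from -1.02 ± 0.32 for Uqcr10, a small subunit, to -0.27 ± 0.21 for Uqcrfs1, the Rieske iron-sulfur protein. Among the assembly factors the range was -0.70 (Ndufaf5) to -0.39 (Ndufaf4), and 0 of 8 passed.

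Of the 24 members with more than 1 probe, 23 had at least 2 probes above background. The probes had the same sign in fetal liver KO minus WT and in bone marrow pair 2 for all 23. The tissue difference had both signs among the probes of 3 members, Cox7a2l (-0.39 to 0.07), Ndufaf4 (-0.39 to 0.50) and Ndufb11 (-0.68 to 0.30), so the tissue values of these 3 depend on the probe.

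Promoter sequence was not used in the choice of the members. RefSeq promoter windows (GRCm38.p6, 250 bases before to 50 after the start) were found for 76 of the 93 members, in 81 windows. The motif GCGCATGCG of NRF1, a nuclear regulator of respiratory genes, was found on either strand in 12.3% of member windows and in 1.75% of all 32851 windows. The ETS motif CCGGAAG, which GABPA binds, was found in 23.5% against 8.86%, and the YY1 motif AAGATGGCG in 9.88% against 1.40%. In the 150 bases before the start, member windows held a median of 11 CpG pairs, against 4 for all windows. A match describes only the letters in the window. The median tissue difference in the value table was -0.69 for the 10 with the NRF1 motif and -0.70 for the 64 others with a window, -0.68 for 19 and -0.70 for 55 with the ETS motif, and -0.89 for 8 and -0.70 for 66 with the YY1 motif.

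The upstream stretches of 150 bases shown here, which end at the base before the start, are those of a member with and a member without these motifs. Ndufa11 (chr17:56717612-56717761, + strand) holds an NRF1 match, in capitals and read on both strands, and 15 CpG pairs. Cox7a1 (chr7:30184021-30184170, + strand), the member called in both sources, holds none of the 3 motifs there and 4 CpG pairs.
Ndufa11: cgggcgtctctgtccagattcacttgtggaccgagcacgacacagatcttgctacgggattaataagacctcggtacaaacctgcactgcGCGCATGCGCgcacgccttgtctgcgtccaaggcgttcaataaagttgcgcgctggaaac
Cox7a1: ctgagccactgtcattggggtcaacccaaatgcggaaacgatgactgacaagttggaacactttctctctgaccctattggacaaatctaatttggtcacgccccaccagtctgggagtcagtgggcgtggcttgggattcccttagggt

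Among the called members, Ndufa9 and Ndufs6 carried the YY1 motif, which lay after the start in both. Their sites are shown with the motif in capitals, for Ndufa9 at chr6:126849097-126849125 and for Ndufs6 at chr13:73328433-73328459, both on the - strand of GRCm38.p6 and printed along the gene.
Ndufa9: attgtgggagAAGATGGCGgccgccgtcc
Ndufs6: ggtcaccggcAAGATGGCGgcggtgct

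The ETS motif was found in members of complexes I, II, III, IV and V. The sites of Sdhb and Sdhd of complex II (chr4:140961267-140961293, + strand, and chr9:50603879-50603905, - strand), Uqcrh of complex III (chr4:116075064-116075090, - strand) and Cox6b1 of complex IV (chr7:30626126-30626152, - strand) are shown along the gene, with the motif or its reverse complement in capitals.
Sdhb: ctcggagaaaCCGGAAGcggccttcca
Sdhd: cgtctcctgcCTTCCGGttcacgcttc
Uqcrh: gtatgccgcaCTTCCGGccaggtcgcc
Cox6b1: cctctcgcagCTTCCGGccagtcggaa

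Other mitochondrial gene lists were read in the same fits. The calls between tissues given here are those of the value table, where 14.0% of all genes were called lower, and the scanner files called no gene of these lists between tissues. The 77 tested mitochondrial ribosome genes (Mrpl and Mrps) encode proteins of the machinery that translates the messages of mitochondrial DNA. Their medians were close to those of the members, at -0.31 in fetal liver KO minus WT (74 of 77 lower). By the value table they were -0.26 in bone marrow KO minus WT (71 lower) and -0.69 between tissues (75 lower). In the scanner files the bone marrow KO minus WT median was 0.16, with 58 of the 77 higher, so its direction turned on the source. Between tissues 8 of the 77 were called lower, among them Mrpl34 at -1.09 ± 0.24 (limma adjusted p = 0.0321). Of 13 citric acid cycle genes, the citrate synthase gene Cs was called lower in bone marrow at -0.85 ± 0.20 (limma adjusted p = 0.0350) and Suclg2, a subunit of succinyl-CoA ligase, was called higher at 0.77 ± 0.20 (limma adjusted p = 0.0479). Of 24 assembly genes of complexes II to V, Cox19 and Taco1 were called lower, and of 6 other complex I assembly genes Acad9 and Timmdc1 were. Of 11 nuclear regulators Polrmt, the mitochondrial RNA polymerase gene, was called lower at -0.73 ± 0.17 (limma adjusted p = 0.0362), and of 2 electron carriers and 8 genes of pyruvate entry none was. No gene of these lists was called between KO and WT in either source.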

How the data were processed

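The submitters' processing notes name Agilent Feature Extraction 10.7.1.1 for the deposited intensity files, of which the processed signal was used. The deposited value table holds a linear ratio per probe with column medians of 0.056 to 0.0709. For 5 arrays it equals the scanner signal divided by a constant near the 75th percentile, with no centring of genes; how the authors made the column of bone marrow WT replicate 1 is not given in the sources used here. Levels are log2 values minus the array's or column's 75th percentile. Probes were named through RefSeq accessions (26762 of 55681). Tested genes had a probe well above background throughout at least 1 group, and in the column of bone marrow WT replicate 1 a level above -3.7 stood for that flag. A bound ("at least") sets the brighter sample against the lowest signal above background. Fits used limma 3.58.1 in R 4.3.3 (lmFit, eBayes) over all genes with Benjamini-Hochberg adjusted p under 0.05. They were also run on simulated data, with shifts larger than most member differences and independent noise on each array. That run cannot show how well differences of the members' size are found. Normexp correction, an alternative, used the median signal because the files hold no mean signal. Named genes are members past the threshold, the highest and lowest per complex, all Sdh, c-ring and isoform genes, Atpif1, and genes of other lists past the threshold, with 1 member not reported here. The members and lists were chosen with earlier results of these data known. Slides are the assumed pairs of tissue and replicate number. The correlation of same-numbered bone marrow deviations was 0.56 with the value table and 0.05 with the scanner files. The number of arrays limits the precision.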

Additional observations from a re-analysis of the deposited data

How the results depend on the processing

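No member was called between KO and WT, or in the interaction, except when an array was left out. Without bone marrow WT replicate 2, the scanner files called 2 members (Cox6a2 and Cox6b2) in bone marrow and 1 (Cox6a2) in the interaction, and leaving out the others gave 0. Without KO replicate 2, the value table called 1 (Cox6a2), against 0 otherwise. With the replicate block, which pairs arrays by tissue and replicate number, 0 members were called between genotypes and 1 between tissues in each source. Between tissues the scanner files called 1 member, and 0 with no filter on dim probes, 0 with median scaling (added after the data were seen) and 0 with KO arrays only or WT arrays only. Leaving out 1 array gave 0 to 2. The value table called 11 between tissues, 4 with quantile scaling, 4 with no filter (3 of the 11, and Cox8b, which is above background on no array), 24 with only probes above background on every array (all 11 among them), 1 with the replicate block, 2 to 4 with 1 array left out, 1 with KO arrays only, 0 with WT arrays only and 3 with median scaling. The cause of these changes was not tested. Between tissues the replicate block called 833 genes in the value table and 336 in the scanner files. For the other settings the number of all genes called is not given here. Their counts of members are therefore no result about the members. All members called were lower in bone marrow. The 2 members at least 2-fold apart in fetal liver became 0 with normexp correction and 1 with quantile scaling. The fetal liver median lay between -0.31 and -0.18 over 5 alternatives, and the tissue median between -0.86 and -0.21 over 12 alternatives in the value table. Cox7b2, Cox8b and Cox8c were below background throughout, so their levels give no comparison.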
